A study of Mus musculus with 6 samples.

Results

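Aminoacyl-tRNA synthetases are the enzymes that join each amino acid to its transfer RNA (tRNA), and the RNA of their genes was measured in Th17 cultures of the mouse that received either oligomycin or its vehicle, DMSO. The genes were taken by symbol, as 20 cytosolic and 16 mitochondrial synthetase genes. Of these 36 symbols 35 had a row of their own among the 10041 rows of the deposited table, 19 cytosolic and 16 mitochondrial. Aars, the alanyl-tRNA synthetase gene, occurred only in a row combined with its neighbour Exosc6 and was left out of the counts. Symbols ending in 2 name the mitochondrial enzymes.

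Both groups started as naive CD4 T cells of the mouse and spent 48 h under Th17 conditions, which turn them toward a lineage that secretes IL-17. The stimulating antibodies were anti-CD3e, bound to the plate at 10 µg/ml, and anti-CD28 at 1 µg/ml. Of the cytokines, IL-23 was given at 10 ng/ml, IL-6 at 20 ng/ml and TGFb1 at 2.5 ng/ml. One group of 3 libraries received DMSO alone. The other group of 3 received oligomycin at 2.5 ng/ml, an inhibitor of the mitochondrial ATP synthase. The labels state no strain, age or number of animals, and where libraries share an animal or culture the p-values measure only the spread between these libraries. Replicate numbers are those of the deposited columns. In bulk RNA, fewer cells with a transcript and less of it per cell cannot be told apart.

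The cytosolic synthetases supply the ribosomes that translate nuclear mRNA. The mitochondrial ones are also encoded in the nucleus, are imported, and charge tRNA for the few proteins made inside the organelle. Those proteins are subunits of the respiratory chain and the ATP synthase. Several cytosolic synthetases are held in a multisynthetase complex, and several are known targets of ATF4, the transcription factor of the integrated stress response. That response is set off when eIF2 is phosphorylated, for example on uncharged tRNA or after mitochondrial stress.

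Expression was given as FPKM, in which fragment numbers are divided by transcript length and by the size of the library, so levels can be set against each other between genes of unequal length. Sequencing depth is unknown, and no counting interval is given. Small RNA rows took 68.9% to 80.3% of the FPKM sum of a library, which after division by short lengths is not a share of reads. T cell markers were present in both groups, Cd4 at 99.8 and 88.5 FPKM and Cd3e at 46.9 and 55.5 in the means of DMSO and oligomycin. Of the Th17 cytokine genes, Il17a stood at 247 FPKM with DMSO and at 12.5 with oligomycin (adjusted p = 2.44e-06). Of 13 listed markers of B, myeloid, NK and CD8 T cells, 11 had no row. Cd68, a myeloid gene, stood at 1.15, 1.08 and 2.07 FPKM with DMSO and at 2.45, 5.07 and 2.39 with oligomycin, and Cd8b1 at 2.41 to 3.30 over the 6 libraries. Their part in the results was not tested. With limma, 3013 of 9986 tested genes (30.2%) passed an adjusted p of 0.05, 14.0% higher and 16.1% lower with oligomycin. The count was 1887 without DMSO replicate 1 and 1769 without DMSO replicate 3. With libraries scaled to equal sums outside the small RNA rows, 58.7% of the calls were higher, against 46.6% as deposited. All 35 synthetase genes passed the filter on low values.

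Among the cytosolic synthetase genes, calls in the direction of a rise were about as frequent as among all genes. Of 19 genes 3 rose (Lars, Eprs and Sars), 0 fell and 16 were not called. The share that rose, 15.8%, was near the 14.0% of all tested genes, and the 0 that fell stand against 16.1%. At an unadjusted p under 0.05 the limma fit had 5 higher and 3 lower, beside 20.6% and 22.2% of all tested genes. Over the 19 genes the log2 changes had a median of 0.04, beside -0.00442 over all genes in the test. Groups did not overlap for 5 genes with oligomycin above and for 4 with oligomycin below, against 23.1% and 24.3% of all tested genes.

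**Figure D1:**
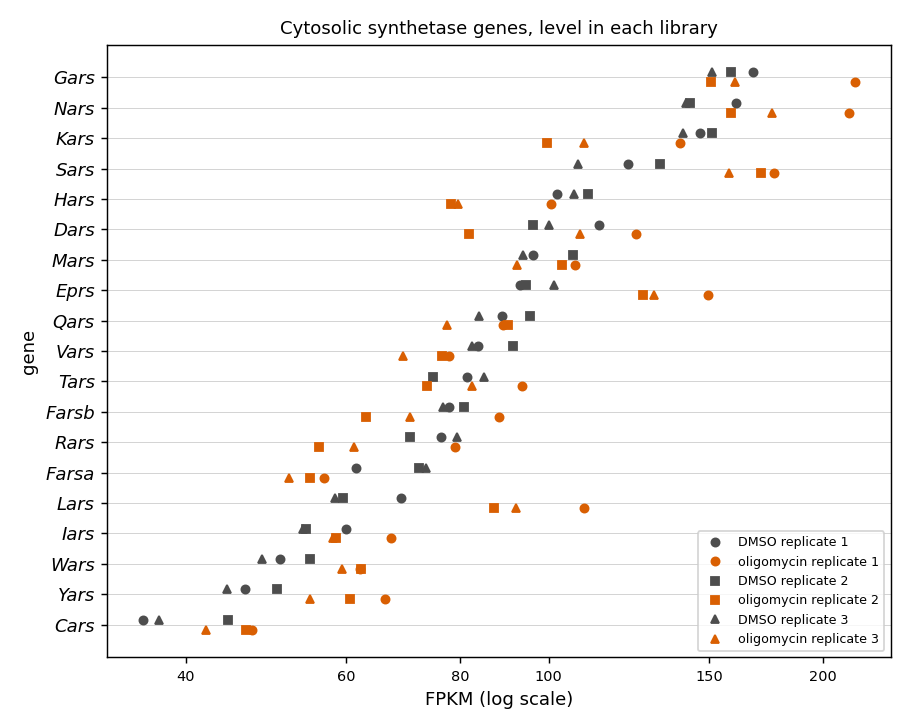
FPKM of the 19 cytosolic synthetase genes in each of the 6 libraries (horizontal log axis), with DMSO in grey and oligomycin in orange and the marker shape giving the replicate number of the column. Lars, Eprs and Sars have all orange markers to the right of all grey ones, and oligomycin replicate 1 is the rightmost marker of many rows.

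Lars, Eprs and Sars were the genes that passed. Lars encodes the leucyl-tRNA synthetase, which also serves as a leucine sensor for mTORC1 (XLOC_009686, chromosome 18, 42202349 to 42262071, GRCm38). It stood at 68.9, 59.5 and 58.3 FPKM with DMSO and at 109, 87.0 and 92.1 with oligomycin. Each oligomycin library lay above each DMSO library, with a mean 1.54-fold higher (log2 change 0.62, SE 0.13, adjusted p = 0.00956). The rise of Lars passed in each of the 14 alternative settings, with adjusted p-values from 0.00179 to 0.0484.

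Eprs encodes the bifunctional glutamyl-prolyl-tRNA synthetase of the multisynthetase complex (XLOC_000607, chromosome 1, 185363095 to 185428355). Its level was 92.9, 94.5 and 101 FPKM with DMSO and 149, 127 and 130 with oligomycin. The groups did not overlap, and the mean was 1.41-fold higher (log2 change 0.49, SE 0.12, adjusted p = 0.0158). The call was lost without DMSO replicate 1 (adjusted p = 0.0651) or DMSO replicate 2 (0.0564), within a range of 0.00206 to 0.0651 over its alternatives. Sars, the seryl-tRNA synthetase gene (XLOC_013494, chromosome 3, 108424864 to 108445259), stood at 122, 132 and 108 FPKM with DMSO and at 177, 171 and 158 with oligomycin. Here too the groups were apart, with a mean 1.39-fold higher (log2 change 0.48, SE 0.13, adjusted p = 0.0214). The call of Sars was lost without DMSO replicate 1 (adjusted p = 0.0656) or DMSO replicate 3 (0.104), within a range of 0.00274 to 0.104.

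The row that combines Aars with Exosc6, an exosome subunit gene, stood at 72.1, 71.1 and 68.4 FPKM with DMSO and at 104, 97.0 and 94.9 with oligomycin. All oligomycin libraries were above all DMSO libraries (1.40-fold, log2 change 0.48, SE 0.11, adjusted p = 0.0112), and the call was lost without DMSO replicate 3 (0.0594, within a range of 0.00209 to 0.0594). Exons of other genes cover 15.1% of the exonic bases of Aars in GENCODE M21, and how much of this row comes from Aars was not tested.

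Yars, the tyrosyl-tRNA synthetase gene, and Farsa, the catalytic subunit gene of phenylalanyl-tRNA synthetase, lay just past the threshold. Yars stood at 46.4, 50.3 and 44.4 FPKM with DMSO and at 66.2, 60.6 and 54.7 with oligomycin. These groups did not overlap (log2 change 0.35, SE 0.12, adjusted p = 0.0514), and Yars passed with the column number as a block (0.0407), without rows sharing a locus (0.0465), under quantile normalization (0.00887) and with equal sums (0.0115). Its adjusted p ran from 0.00887 to 0.177 over the alternatives. Farsa pointed the other way, at 61.5, 72.1 and 73.3 FPKM with DMSO and 56.7, 54.7 and 51.9 with oligomycin. Its groups were apart as well (log2 change -0.33, SE 0.12, adjusted p = 0.0601), and the adjusted p stayed between 0.0554 and 0.206. Farsb, which encodes the other subunit of the same enzyme, stood at 77.7, 80.7 and 76.6 FPKM with DMSO and at 88.2, 63.0 and 70.5 with oligomycin. The DMSO values of Farsb lie inside its oligomycin range (log2 change -0.10, 95% interval -0.42 to 0.22).

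Kars, Hars, Wars and Vars had groups that did not overlap without passing the test. Kars, the lysyl-tRNA synthetase gene whose one locus serves both compartments, stood at 146, 151 and 140 FPKM with DMSO and at 139, 99.6 and 109 with oligomycin. Replicate 1 of oligomycin was just under the DMSO range and the other two well under it (log2 change -0.34, adjusted p = 0.107). Hars, the histidyl-tRNA synthetase gene, stood at 102, 110 and 107 FPKM with DMSO and at 100, 78.2 and 79.5 with oligomycin. It showed the same arrangement of libraries (log2 change -0.31, adjusted p = 0.104). Wars, the tryptophanyl-tRNA synthetase gene, stood at 50.7, 54.7 and 48.5 FPKM with DMSO against 62.1, 62.2 and 59.4 with oligomycin (log2 change 0.25, adjusted p = 0.104). Vars, for valine, stood at 83.7, 91.5 and 82.4 against 77.6, 76.4 and 69.2 FPKM (log2 change -0.20, adjusted p = 0.195).

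In the other 10 cytosolic genes the groups overlapped. Nars, for asparagine, stood at 161, 143 and 141 FPKM with DMSO and at 214, 159 and 176 with oligomycin. Only its oligomycin replicate 2 fell inside the DMSO range (log2 change 0.29, adjusted p = 0.155). Gars, the glycyl-tRNA synthetase gene that also serves both compartments, was the most abundant with DMSO at 168, 158 and 151 FPKM, and stood at 217, 151 and 160 with oligomycin. Replicate 1 alone lay above the DMSO libraries (log2 change 0.13, adjusted p = 0.562). Dars, for aspartate, stood at 114, 96.0 and 99.9 against 125, 81.7 and 108 FPKM (log2 change 0.00401, 95% interval -0.37 to 0.38). The oligomycin values of Dars reach past the DMSO range on both sides.

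The remaining fitted changes were 0.21 for Cars (cysteine), 0.13 for Iars (isoleucine), 0.04 for Tars (threonine) and 0.03 for Mars (methionine). Those of Qars (glutamine) and Rars (arginine) were -0.06 and -0.22. Mars shares its locus with Ddit3 on the other strand, and exons of Ddit3 cover 1.99% of its exonic bases. Ddit3 rose from 12.8, 36.6 and 21.0 FPKM to 67.1, 132 and 83.7 (log2 change 2.02, adjusted p = 0.00431), while Mars stood at 96.2, 106 and 93.6 and at 107, 103 and 92.2 FPKM. For all 19 cytosolic genes the 95% interval of the log2 change lay within -1 and 1, that is within a 2-fold change of FPKM + 1. These intervals are not adjusted for the number of genes.

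**Figure D2:**
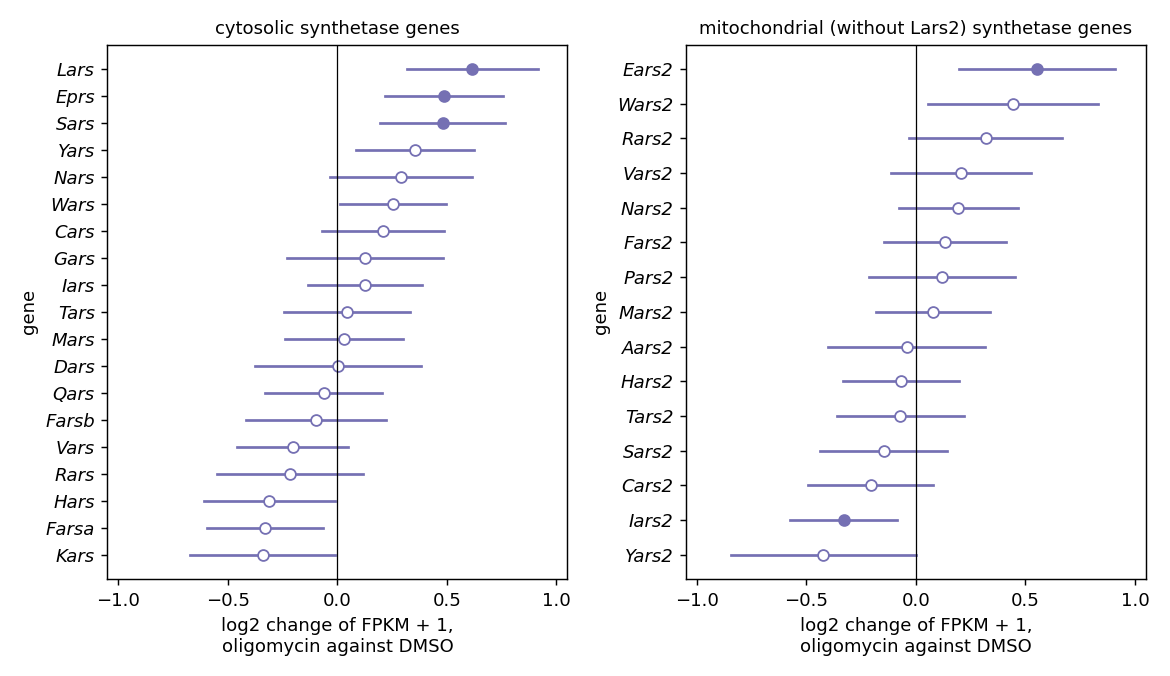
Log2 change of FPKM + 1 with oligomycin against DMSO (horizontal axis) for each cytosolic and mitochondrial synthetase gene except Lars2, with bars for the 95% interval from limma and filled markers where the adjusted p lay under 0.05. Filled markers are Lars, Eprs and Sars on the left, and Ears2 and Iars2 on the right. No bar reaches a 2-fold change of FPKM + 1.

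Oligomycin replicate 1 stood apart in the cytosolic genes. It held the highest of the 6 values in 12 of 19 genes, and oligomycin replicate 2 the lowest in 7. With the average over all 6 libraries set to 0, the cytosolic genes lay on average at 0.20 on the log2 scale in oligomycin replicate 1 and at -0.05 and -0.04 in replicates 2 and 3. The DMSO libraries lay at -0.03, -0.01 and -0.07, so replicates 2 and 3 of oligomycin fell inside their range. Over all tested genes the oligomycin libraries lay at -0.0037, 0.0062 and -0.0474. Without oligomycin replicate 1, 3 cytosolic genes rose and 3 fell, namely Kars (log2 change -0.48, adjusted p = 0.0165), Hars (-0.43, 0.0209) and Rars (-0.36, 0.0485), and the median was -0.03. Over their alternatives the adjusted p ran from 0.0165 to 0.339 for Kars, from 0.0209 to 0.324 for Hars and from 0.0485 to 0.655 for Rars. Without oligomycin replicate 1, 1387 of all 9915 tested genes were called higher and 1861 lower. Other scalings moved these genes and all genes. With quantile normalization 6 cytosolic genes rose (Wars, Yars and Nars in addition), beside 1549 of all 9986 tested genes. Their median was 0.210, beside 0.031 over all genes. With equal sums 5 rose (Wars and Yars in addition), beside 1866 of all 9984 tested genes. The cytosolic median was then 0.144, beside 0.089 over all genes.

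**Figure D3:**
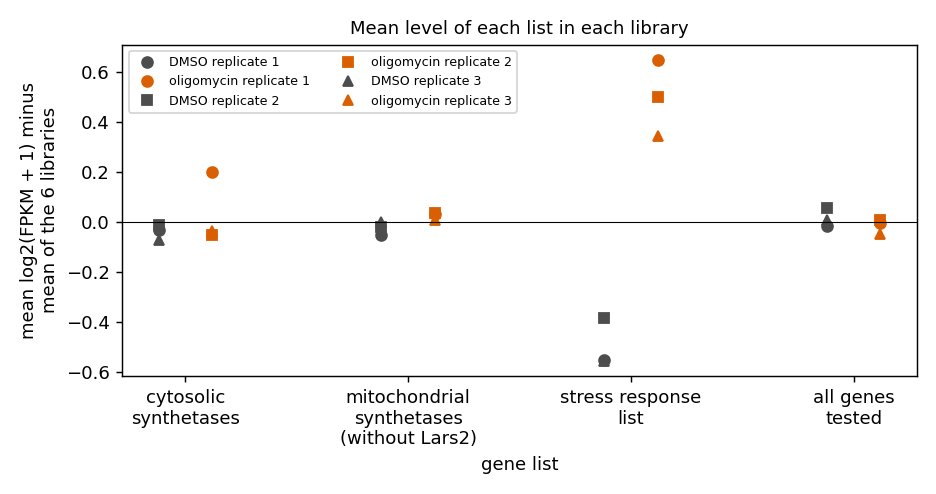
Mean log2(FPKM + 1) of each list in each library, as the difference from the mean of the 6 libraries (vertical axis), for the cytosolic synthetases, the mitochondrial synthetases without Lars2, the stress response list and all tested genes. For the cytosolic genes oligomycin replicate 1 lies at 0.20 while the other two oligomycin libraries lie among the DMSO libraries, and for the stress response list all 3 oligomycin libraries lie above all DMSO libraries.

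The cytosolic genes were also described by membership in the multisynthetase complex. Among its 8 synthetases 2 rose (Lars and Eprs), 0 fell and the median log2 change was 0.02, against 1 of 11 that rose (Sars) and a median of 0.13 outside it. By structural class, 2 of 10 class I genes rose with a median of 0.17, and 1 of 9 class II genes with a median of 0.00401. The difference between these subsets was not tested. Over all tested genes 14.0% rose and 16.1% fell. Eprs is counted in class I but also holds a class II prolyl part. Of the scaffold proteins of the complex, Aimp2 fell from 60.8, 67.4 and 59.3 FPKM to 51.9, 40.9 and 47.4 (log2 change -0.42, SE 0.13, adjusted p = 0.0366). That call was lost without any 1 library other than oligomycin replicate 1, with adjusted p-values from 0.0828 to 0.12, and under quantile normalization (0.072) or equal sums (0.0605). Aimp2 shares its locus with another row, so the setting without such rows does not hold it. Aimp1 and Eef1e1, the other scaffold genes, had log2 changes of 0.09 and -0.10 (adjusted p = 0.546 and 0.661).

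The mitochondrial synthetase genes were expressed at lower levels than the cytosolic ones. Leaving out Lars2, their DMSO means ran from 2.41 FPKM (Wars2) to 36.6 (Iars2) with a median of 9.09, against 39.2 (Cars) to 159 (Gars) with a median of 85.9 in the cytosol. With oligomycin the means ran from 3.68 to 30.1 and from 45.3 to 183 FPKM, so the means of the sets did not overlap in either group. In single libraries Iars2 lay above Cars in DMSO replicate 1 (37.9 against 35.9 FPKM) and DMSO replicate 3 (37.7 against 37.3). With oligomycin, 1 of 16 rose (Ears2), 1 fell (Iars2) and 14 were not called, that is 6.25% in each direction against 14.0% and 16.1% of all tested genes. Their log2 changes had a median of 0.05. Groups did not overlap for 3 genes with oligomycin above (Ears2, Nars2 and Wars2) and for 2 with oligomycin below (Cars2 and Iars2), against 23.1% and 24.3% of all tested genes.

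**Figure D4:**
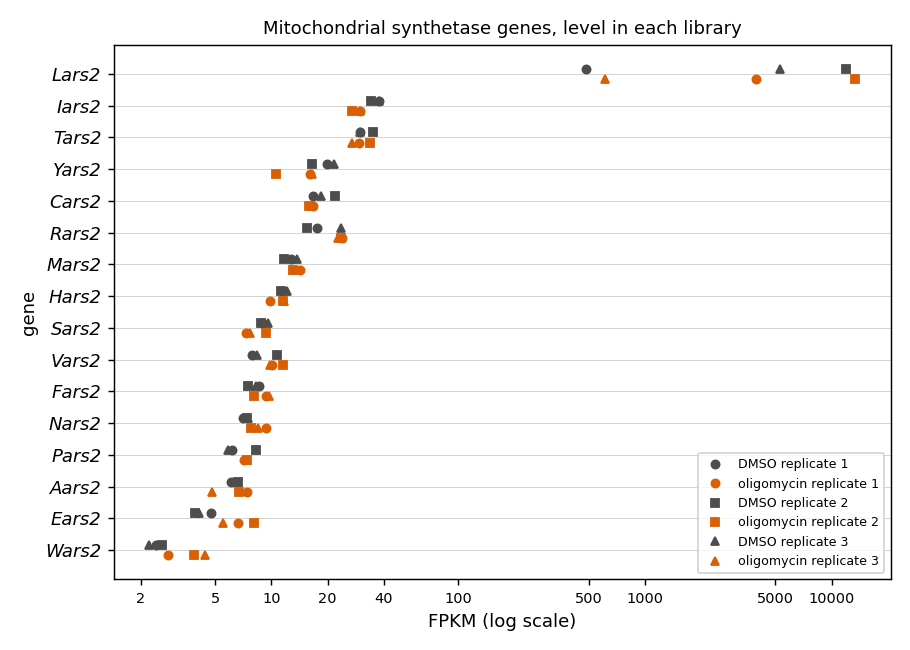
FPKM of the 16 mitochondrial synthetase genes in each of the 6 libraries (horizontal log axis), with DMSO in grey and oligomycin in orange and the marker shape giving the replicate number of the column. Ears2 has its orange markers to the right of the grey ones and Iars2 to the left, and Lars2 spreads over more than a factor of 10 inside each group.

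Ears2 encodes the mitochondrial glutamyl-tRNA synthetase, which also loads glutamate onto the glutamine tRNA for later conversion (XLOC_019485, chromosome 7, 122038821 to 122067063). It stood at 4.76, 3.89 and 4.09 FPKM with DMSO and at 6.64, 8.06 and 5.54 with oligomycin. The groups were apart, with a mean 1.59-fold higher (log2 change 0.55, SE 0.16, adjusted p = 0.0292). The call of Ears2 was lost on leaving out DMSO replicate 2 (0.0885), DMSO replicate 3 (0.0911), oligomycin replicate 1 (0.052) or oligomycin replicate 2 (0.0724), within a range of 0.0177 to 0.0911. The amidotransferase subunit genes that act after Ears2, Gatc and Qrsl1, had log2 changes of 0.01 and -0.02 (adjusted p = 0.955 and 0.916).

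Iars2, the mitochondrial isoleucyl-tRNA synthetase gene (XLOC_001241), stood at 37.9, 34.3 and 37.7 FPKM with DMSO and at 29.9, 27.1 and 29.8 with oligomycin. All oligomycin values were lower, with a mean 1.27-fold lower (log2 change -0.33, SE 0.11, adjusted p = 0.0481). The call was lost when any 1 of the 6 libraries was left out (adjusted p = 0.0516 to 0.158), and under quantile normalization (0.114), equal sums (0.146) or no intensity trend (0.0618). Iars2 shares its locus (chromosome 1, 185204168 to 185329401) with Rab3gap2 and Mir194-1. Exons of other genes on the opposite strand, Rab3gap2 among them, cover 24.2% of its exonic bases. Rab3gap2 stood at 12.2 ± 1.82 and 13.4 ± 1.04 FPKM (SD, n = 3 each; limma adjusted p = 0.506). The labels do not state whether the libraries keep the strand, so reads from the overlap cannot be told apart.

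Wars2 and Yars2 had the next smallest p-values. Wars2, for tryptophan, was the least abundant at 2.41, 2.59 and 2.22 FPKM with DMSO and stood at 2.78, 3.83 and 4.42 with oligomycin. All oligomycin values lay above (log2 change 0.44, adjusted p = 0.0817), and without oligomycin replicate 1 Wars2 was called (0.0261, within a range of 0.0261 to 0.246). Yars2, for tyrosine, stood at 20.0, 16.4 and 21.8 FPKM with DMSO and at 16.1, 10.5 and 16.6 with oligomycin. One oligomycin library reached just into the DMSO range (log2 change -0.42, adjusted p = 0.116), and Yars2 was called with the column number as a block (0.0271, within a range of 0.0271 to 0.294).

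Rars2, Cars2, Nars2 and Vars2 followed in order of p. Rars2, for arginine, stood at 17.5, 15.5 and 23.6 FPKM with DMSO and at 23.9, 23.7 and 22.6 with oligomycin. DMSO replicate 3 alone reached the oligomycin level (log2 change 0.32, adjusted p = 0.148), and without it Rars2 was called higher (0.047, within a range of 0.047 to 0.399). Cars2, for cysteine, stood at 16.8, 22.0 and 18.5 against 16.6, 15.9 and 16.4 FPKM (log2 change -0.21, adjusted p = 0.238), with its oligomycin values just under the lowest DMSO value.

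Nars2, for asparagine, stood at 7.04, 7.41 and 7.50 against 9.36, 7.75 and 8.49 FPKM (log2 change 0.19, adjusted p = 0.246). Vars2, for valine, stood at 7.89, 10.7 and 8.41 against 10.1, 11.6 and 9.82 FPKM (log2 change 0.21, adjusted p = 0.290). The log2 changes of Fars2, Pars2 and Mars2 were 0.13, 0.12 and 0.08, and those of Aars2, Hars2, Tars2 and Sars2 were -0.04, -0.07, -0.07 and -0.15, with adjusted p-values of 0.399 to 0.851. Outside Lars2, all mitochondrial 95% intervals lay within a 2-fold change of FPKM + 1. For low genes such as Wars2 and Ears2 this is not a bound of 2-fold on FPKM itself.

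Lars2, the mitochondrial leucyl-tRNA synthetase gene (XLOC_021459, chromosome 9, 123366940 to 123462664), differed from the other synthetase genes in level and spread. It was listed at 485, 12007 and 5304 FPKM with DMSO and at 3931, 13371 and 612 with oligomycin. Its highest library was 27.5-fold above its lowest, both groups held low and high libraries, and the 95% interval of the log2 change ran from -2.96 to 3.0. Among the other 34 genes the highest library was at most 2.07-fold above the lowest. The row of Rn45s, the precursor of the cytosolic ribosomal RNAs, was listed at 12615 FPKM in DMSO replicate 1 and at 12640 in oligomycin replicate 3, and at 0 in the other 4 libraries. The 2 libraries with a value for Rn45s were those in which Lars2 was lowest. Of the 11160 31-base words in the GENCODE M21 transcripts of Lars2, 0 occur in the mitochondrial ribosomal RNA genes mt-Rnr1 and mt-Rnr2. No separate count was made against Rn45s, so these words say nothing about sequence shared with that precursor. Whether the Lars2 row holds Lars2 mRNA alone was not tested. The mitochondrial counts, the medians of the log2 change and the gene pairs below include it. Without Lars2 the mitochondrial median was 0.08 in place of 0.05.

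**Figure D5:**
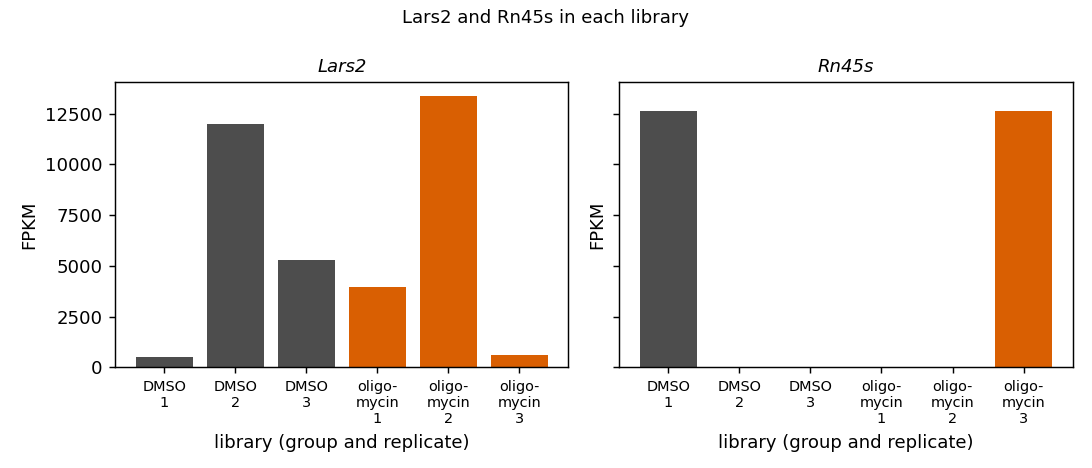
FPKM of Lars2 (left) and Rn45s (right) in each library, on a shared linear axis from 0, with DMSO in grey and oligomycin in orange. Lars2 is lowest in DMSO replicate 1 and oligomycin replicate 3, the 2 libraries in which Rn45s is not listed at 0.

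Setting each cytosolic gene against the mitochondrial gene for the same amino acid gave 16 pairs. These ratios of FPKM are descriptions with no test. They lay higher in each oligomycin library than in each DMSO library in 4 pairs, lower in 3, and overlapped in 9. How often ratios of other gene pairs do so was not computed. Of all tested genes taken singly, 23.1% lay above and 24.3% below without overlap. In the pairs of Yars, Cars, Rars, Farsa and Vars that did not overlap, 0 partners were called. The ratio of Yars to Yars2 was 2.32, 3.06 and 2.04 with DMSO and 4.12, 5.75 and 3.30 with oligomycin, higher in each oligomycin library. That of Sars to Sars2 was 13.8, 15.0 and 11.3 against 24.0, 18.2 and 20.5. That of Iars to Iars2 was 1.58, 1.58 and 1.42 against 2.25, 2.16 and 1.94, and Cars to Cars2 also stood higher in each oligomycin library. In these pairs the cytosolic partner had the higher log2 change, which largely follows from naming pairs by a higher ratio.

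Rars to Rars2 went the other way, at 4.36, 4.54 and 3.37 with DMSO and 3.30, 2.37 and 2.70 with oligomycin. The same order held for Farsa to Fars2 and for Vars to Vars2, the latter at 10.6, 8.58 and 9.79 against 7.72, 6.61 and 7.05. For Eprs and Ears2, which both rose, the ratio was 19.5, 24.3 and 24.8 with DMSO and 22.5, 15.8 and 23.5 with oligomycin, with overlapping groups. For methionine, Mars to Mars2 stood at 7.55, 9.13 and 6.87 against 7.51, 7.93 and 7.10. Outside the leucine pair the ratios ran from 1.42 to 24.8, so the cytosolic gene was the more abundant in each library of these 15 pairs.

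Of 24 other genes of tRNA charging (synthetase-like proteins, proofreading, tRNA repair, export and delivery to the ribosome) 21 were in the table, of which 2 rose (Xpot and Eef1a1), 1 fell (Aimp2) and 18 were not called. The shares, 9.52% higher and 4.76% lower, lie below the 14.0% and 16.1% of all tested genes. Xpot, the tRNA exporter of the nucleus, rose from 22.2, 21.1 and 24.6 FPKM to 37.9, 32.3 and 35.9 (log2 change 0.62, SE 0.12, adjusted p = 0.00549), with groups apart and a call in all 14 alternatives. Eef1a1, which carries charged tRNA to the ribosome, rose from 1889, 2088 and 1632 FPKM to 3447, 3026 and 2927 (log2 change 0.75, adjusted p = 0.0195). Its call was lost without DMSO replicate 1 (0.0576) or 3 (0.0898), within a range of 0.00597 to 0.0898. Mtfmt, which formylates the initiator methionyl-tRNA of mitochondria, stood at 8.75 and 6.53 FPKM in the group means (adjusted p = 0.0529).

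Most measured genes of the integrated stress response list, which holds no aminoacyl-tRNA synthetase, rose in the same comparison. Of 20 listed genes 18 were in the table, of which 13 rose (72.2%, beside 14.0% of all tested genes), 1 fell (Vldlr, a lipoprotein receptor gene at 1.52 and 0.333 FPKM in the group means) and 4 were not called (Atf3, Psat1, Eif4ebp1 and Ppp1r15a), with a median log2 change of 0.83. Atf4 itself rose from 173, 193 and 182 FPKM to 306, 254 and 257 (log2 change 0.57, SE 0.13, adjusted p = 0.0122), a call lost without DMSO replicate 1 (0.0542) or 3 (0.054), within a range of 0.00134 to 0.0542. Asns, the asparagine synthetase gene, rose from 66.7, 46.2 and 47.4 FPKM to 129, 73.5 and 96.7, with groups apart (log2 change 0.87, SE 0.22, adjusted p = 0.0187). Its call was lost without DMSO replicate 2 (0.0608) or 3 (0.0684) or oligomycin replicate 3 (0.0533), within a range of 0.00249 to 0.0684.

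The pseudokinase gene Trib3 rose from 6.19, 8.75 and 7.13 FPKM to 37.0, 53.7 and 38.5 (log2 change 2.39). The transcription factor gene Atf5 rose from 5.18, 5.52 and 6.85 FPKM to 34.9, 39.0 and 27.3 (2.34). Groups were far apart in both. Chac1, which encodes a glutathione-degrading enzyme, rose from 4.08, 4.30 and 5.40 FPKM to 22.1, 15.8 and 14.5 (1.71). Sesn2, an mTORC1 inhibitor gene, rose from 10.1, 10.6 and 10.6 FPKM to 45.2, 33.9 and 28.8 (1.67). The largest fitted rise among the cytosolic synthetase genes was the 0.62 of Lars. Without DMSO replicate 3, 10 genes of the stress response list were called higher. The genes of 3 eIF2 kinases, which start the response, were measured and 0 were called, beside 30.2% of all tested genes. At an unadjusted p under 0.05 in limma 0 passed, beside 20.6% higher and 22.2% lower of all tested genes. The 3 genes were Eif2ak1, Eif2ak3 and Eif2ak4, with log2 changes of -0.21, -0.09 and -0.28. Activity of the kinases was not measured.

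Promoter sequence was examined because ATF4 binds, together with C/EBP proteins, an element whose core can be written TGATGNAA, and because MYC binds the E-box CACGTG. RefSeq promoters (GRCm38.p6, 300 bases from 250 before the transcription start) were found for 13 cytosolic and 14 mitochondrial genes and searched on both strands. TGATGNAA occurred in 5 of 13 cytosolic genes (38.5%), Aars, Gars, Iars, Tars and Yars, in 0 of 14 mitochondrial genes and in 4.0% of all 32851 promoters in the table. CACGTG occurred in 4 of 13 cytosolic genes (30.8%), Aars, Farsb, Iars and Tars, in 1 of 14 mitochondrial genes (Ears2) and in 7.2% of all promoters. Synthetase genes were counted once each, whereas the shares of all promoters count each promoter entry. No match of one motif overlapped a match of the other. Cars, Hars, Lars, Nars, Rars, Vars, Wars, Hars2 and Pars2 had no entry.

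The stretches from 120 bases before the start site to 30 bases from it are shown for the 5 genes with TGATGNAA and, for contrast, for Eprs and Sars, which rose and have neither motif in their 300 bases. Capitals mark matches to either motif on either strand.
Aars: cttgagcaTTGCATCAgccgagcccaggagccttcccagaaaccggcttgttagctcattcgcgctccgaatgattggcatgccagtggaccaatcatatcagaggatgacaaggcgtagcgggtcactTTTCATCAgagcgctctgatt
Gars: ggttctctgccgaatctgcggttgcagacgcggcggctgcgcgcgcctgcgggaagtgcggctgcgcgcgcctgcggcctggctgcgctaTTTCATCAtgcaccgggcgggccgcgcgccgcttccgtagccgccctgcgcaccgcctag
Iars: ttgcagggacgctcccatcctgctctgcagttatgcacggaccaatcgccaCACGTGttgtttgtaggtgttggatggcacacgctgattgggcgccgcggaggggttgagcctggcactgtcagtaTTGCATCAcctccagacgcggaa
Tars: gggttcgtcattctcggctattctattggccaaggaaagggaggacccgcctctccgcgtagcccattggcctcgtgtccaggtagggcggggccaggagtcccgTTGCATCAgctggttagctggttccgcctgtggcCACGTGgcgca
Yars: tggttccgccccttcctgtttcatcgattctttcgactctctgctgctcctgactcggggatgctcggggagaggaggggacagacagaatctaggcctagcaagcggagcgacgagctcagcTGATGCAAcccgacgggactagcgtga
Eprs: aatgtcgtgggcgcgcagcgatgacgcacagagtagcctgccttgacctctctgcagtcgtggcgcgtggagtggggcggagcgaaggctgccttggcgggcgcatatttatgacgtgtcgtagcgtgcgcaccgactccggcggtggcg
Sars: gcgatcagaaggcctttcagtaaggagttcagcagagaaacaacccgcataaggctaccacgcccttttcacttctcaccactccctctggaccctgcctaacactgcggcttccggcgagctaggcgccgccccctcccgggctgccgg

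They lie at chr8:111033722-111033871 (Aars, plus strand), chr6:55037881-55038030 (Gars, plus), chr13:49682010-49682159 (Iars, plus), chr15:11399629-11399778 (Tars, minus), chr4:129189783-129189932 (Yars, plus), chr1:185362924-185363073 (Eprs, plus) and chr3:108445230-108445379 (Sars, minus). Counting the first transcribed base as 1, the TGATGNAA match began at 4 in Yars, 8 in Iars and 10 in Aars, and 15 bases before the start in Tars and 30 in Gars. Aars held a further match 112 bases before the start, and its E-box, 146 bases before it, lies outside the stretch shown. The 4 of these genes with a row of their own, Gars, Iars, Tars and Yars, had log2 changes of 0.13, 0.13, 0.04 and 0.35. Of these 4 genes 0 were called, beside 14.0% higher and 16.1% lower of all tested genes. Yars lay just past the threshold (limma adjusted p = 0.0514). The row that combines Aars with Exosc6 was called higher (log2 change 0.48, limma adjusted p = 0.0112). How much of it comes from Aars was not tested. Matches are descriptions of these letters and not of binding.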

How the data were processed

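RNA-seq libraries of 3 DMSO and 3 oligomycin cultures were used. The authors deposited 1 table of FPKM, with 1 value per gene and library, and the submitters' processing notes list the build GRCm38 (mm10) and, with no order, Cuffdiff (2.2.1.3), TopHat2 (2.1.0), Cuffnorm (2.2.1.1) and Cufflinks (2.2.1.0). The role of each tool, the annotation, the scaling between libraries, multiply mapped reads, strand and filters are not stated there or in the labels. Sample titles share the numbers 17, 42 and 43 across both groups, which raises a paired design. The columns carry other numbers, 1 to 3, that occur in no title, so each was mapped to its group only and cannot be tied to a title's number. Starts in the table were read as counted from 0 and are printed counted from 1.

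Here, log2(FPKM + 1) was tested with limma 3.58.1 (R 4.3.3) with an intensity trend and the group alone, 2-sided, with Benjamini-Hochberg adjustment over all genes with at least 1 FPKM in at least 3 of the 6 libraries. The pseudocount of 1 understates changes of low genes. Called means an adjusted p under 0.05. The procedure was tested on simulated data. All synthetase genes are named. Values in every library are given for the 10 cytosolic and 8 mitochondrial genes with the smallest p and for called synthetase genes and the extremes. Gars, Mars, Farsb, Rn45s and Rab3gap2 are described in addition, chosen after their values were seen. The synthetase genes and all lists were chosen with earlier results of these data known, so counts and medians over them are descriptions and no test over a list was made. RefSeq promoters and GENCODE M21 exons and transcripts, both of GRCm38, gave sequence and overlaps. Alternatives were other filters, pseudocount, scaling, no trend, no rows sharing a locus, a column-number block and leaving out each library. A gene of the list of other charging genes and one of the marker list are not reported here and were left out of the counts of those lists.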

Additional observations from a re-analysis of the deposited data

How the results depend on the processing

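Leaving out 1 library at a time moved the number of called genes between 1769 and 3248 (3013 with all libraries), that of cytosolic genes called higher between 1 and 3 and called lower between 0 and 3, and that of mitochondrial genes called higher between 0 and 1, with 0 called lower throughout. The median log2 change then ran from -0.033 to 0.156 for the cytosolic and from -0.005 to 0.105 for the mitochondrial genes. Quantile normalization gave 6 cytosolic genes called higher, a cytosolic median of 0.210 and 0 mitochondrial genes called lower. Equal sums without small RNA rows gave 5, 0 mitochondrial genes called lower and a mitochondrial median of 0.145. Among all tested genes, 1549 of 9986 were called higher with quantile normalization and 1866 of 9984 with equal sums. With no intensity trend 0 mitochondrial genes were called lower. Without rows sharing a locus, which removes Iars2, it was 0 with a median of 0.078. Requiring a mean of at least 5 FPKM gave a mitochondrial median of 0.019. Apart from the construction of the settings, the cause of these shifts was not tested.

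Signs turned only in genes that were not called. Under quantile normalization the log2 change was 0.062 for Farsb, 0.114 for Qars, 0.003 for Tars2 and -0.000 for Lars2. With equal sums it was 0.003 for Farsb, 0.036 for Qars, 0.043 for Aars2, 0.023 for Hars2 and 0.026 for Tars2. Leaving out 1 library gave ranges of -0.130 to 0.171 for Dars, -0.229 to 0.010 for Farsb, -0.033 to 0.227 for Gars, -0.014 to 0.092 for Mars, -0.107 to 0.007 for Qars and -0.042 to 0.128 for Tars. For Aars2 the range was -0.151 to 0.112, for Hars2 -0.112 to 0.002, for Lars2 -1.327 to 1.207 and for Tars2 -0.156 to 0.003.

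The column numbers were not taken as pairs. Deviations of same-numbered columns correlated at 0.056, 0.247 and 0.132. Oligomycin replicate 1 correlated best with DMSO replicate 3 (0.117), and oligomycin replicates 2 and 3 each with the same-numbered DMSO column. Whether the column numbers stand for pairs is not known. With the column number as a replicate block 3532 genes were called, among them 4 cytosolic genes higher (Yars in addition) and 2 mitochondrial genes lower (Yars2 in addition).

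FPKM carries no depth, so counting error of low genes such as Wars2 and Ears2 is unknown. The Aars row cannot be split from Exosc6, and Lars2 allows no statement on direction.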
